A study of Mus musculus with 4 samples.

Results

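The receptors described here are the G protein-coupled receptors of the fetal mouse pancreas libraries that bind amines, acetylcholine, glutamate or a regulatory peptide. Members were chosen by symbol: the adrenergic, dopamine, serotonin, histamine, muscarinic and metabotropic glutamate receptors, the receptors of the NPY, somatostatin, tachykinin, opioid, galanin and melanocortin families, and 10 receptors of gut and islet hormones. This gave 78 protein-coding genes in 13 families, of which 68 were on at least 1 list, among 29653 genes on any list of the series.

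Cells of E15.5 and E13.5 pancreas of C57BL/6 mice had been labelled for EpCAM, an epithelial surface protein, sorted and made into single-cell RNA libraries, 1 library for each age and genotype. KO embryos were PdxcreSetd2 f/f, so that both copies of Setd2, the histone H3 lysine 36 methyltransferase, were floxed and a Cre recombinase under a Pdx promoter was present, and WT embryos were Setd2 f/f. Both genotypes therefore carried the floxed alleles, and a Pdx-driven Cre is known to act in pancreatic epithelium. In which cells of these embryos the Cre acted was not measured here. How many embryos a library pooled is not stated in the sources used here. The files hold the gene list of each library, and the measurement is whether a receptor stands on that list. There is no level, count or cell, and the depth is unknown. The E15.5 WT list ends after 167 complete lines and covers 2 of the 78 receptors, Grm6 and Oprm1. Each difference below is one between the lists of 2 single libraries, without replicates and without a test.

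All 43 markers of pancreatic progenitors, ducts, endocrine cells, acinar cells and epithelium were on each of the 3 complete lists. Of 48 markers of neurons, glia, mesenchyme, smooth muscle, endothelium, blood and muscle, 37 were on the E15.5 KO list, 47 on the E13.5 KO list and 47 on the E13.5 WT list. Of all annotated protein-coding genes, these lists held 76.2%, 78.1% and 77.9% in the same order. The lists thus held markers of cells other than epithelium. Their share was about that of protein-coding genes in E15.5 KO and above it in both E13.5 lists. What made a gene enter a list is unknown, so a listing does not show that such cells were present. Setd2 itself was on all 3 complete lists, and a listing does not check the deletion.

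G protein-coupled receptors pass a signal from outside the cell to a G protein, which raises cyclic AMP (Gs), lowers it (Gi/o) or releases calcium (Gq/11). In the mature pancreas, acetylcholine and cholecystokinin drive enzyme release from acinar cells, secretin drives bicarbonate secretion by ducts, incretin hormones raise insulin secretion, and noradrenaline, somatostatin and galanin lower it. Nerve and glial precursors, smooth muscle and vessels also carry receptors of these families.

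The E15.5 KO list held 52 of the 78 receptors (66.7%), the E13.5 KO list 61 (78.2%) and the E13.5 WT list 58 (74.4%). Of the 21951 protein-coding genes of the annotation, these lists held 76.2%, 78.1% and 77.9% in the same order. The receptors stood closest to the protein-coding genes in E13.5 KO and furthest below them in E15.5 KO. The E13.5 KO list was also the longest, with 26341 genes, against 25474 in E15.5 KO and 25463 in E13.5 WT. All 3 lists held 45 receptors, 1 or 2 of them held 23, and none held 10. Of the receptors on any complete list, 66.2% were on all 3, against 89.4% of protein-coding genes.

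**Figure D1:**
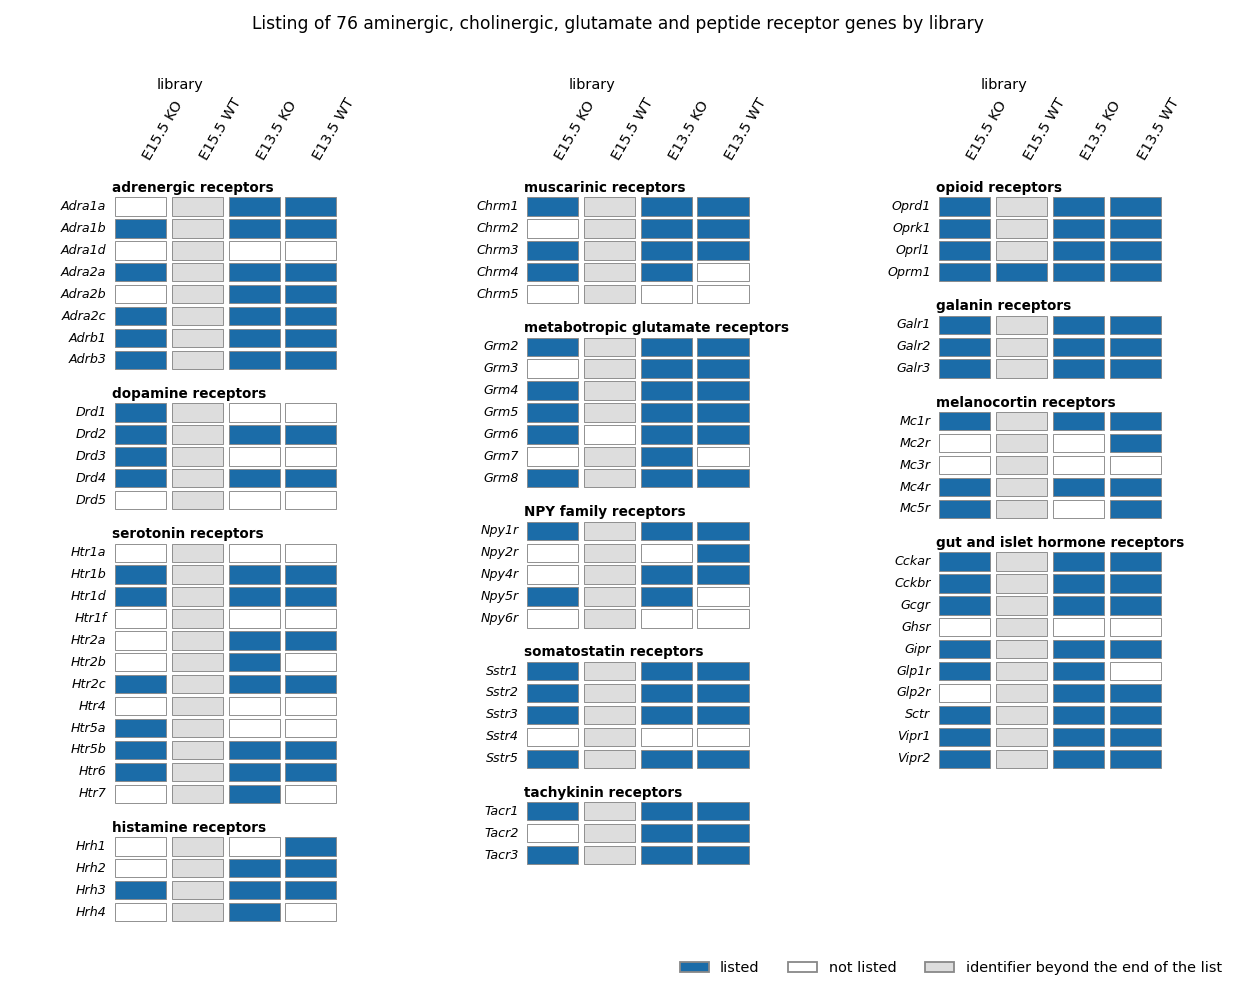
Listing of 76 of the 78 receptor genes in each library, by family. Rows are genes and columns are the 4 libraries; blue cells are listed, white cells not listed, and grey cells are genes that the broken-off E15.5 WT list does not reach. The opioid and galanin families were complete in every complete list, and the histamine and NPY families were the most broken up.

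Among the receptors of gut and islet hormones, 7 of 10 were on every complete list. These were Gcgr, the glucagon receptor, Gipr, the receptor of the incretin GIP, Sctr, the secretin receptor of ducts, Vipr1 and Vipr2, the receptors of vasoactive intestinal peptide and PACAP, Cckar, the cholecystokinin receptor of rodent acinar cells, and Cckbr, which binds gastrin as well as cholecystokinin. Glp1r, the receptor of glucagon-like peptide 1 on beta cells, was on the E15.5 KO and E13.5 KO lists and not on the E13.5 WT list. Glp2r, which mediates growth signals in the intestine, was on both E13.5 lists and not on the E15.5 KO list. Ghsr, the ghrelin receptor, was on none, although Ghrl, the gene of its ligand, was on all 3.

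The somatostatin receptors, Gi/o-coupled receptors through which somatostatin holds back insulin and glucagon release, did not differ between the lists. Sstr1, Sstr2, Sstr3 and Sstr5 were on all 3, and Sstr4 was on none. The galanin receptors Galr1, Galr2 and Galr3 and the opioid receptors Oprd1 (delta), Oprk1 (kappa), Oprl1 (nociceptin) and Oprm1 (mu) were also on all 3. Galr3 shares exon sequence on the same strand with Gcat, so its listing is uncertain.

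The NPY family receptors answer neuropeptide Y, peptide YY and pancreatic polypeptide, and all 3 ligand genes, Npy, Pyy and Ppy, were on every complete list. Npy1r was the one receptor of the 5 on all 3 lists. Npy4r, the receptor with the highest affinity for pancreatic polypeptide, was on both E13.5 lists and not on the E15.5 KO list. Npy5r was on the lists of the E15.5 KO and E13.5 KO libraries alone, Npy2r on the E13.5 WT list alone, and Npy6r on none. Npy5r and Npy1r lie head to head on chromosome 8 with 9063 bases between them, and their listings differed in E13.5 WT.

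Of the melanocortin receptors, Mc1r of pigment cells and Mc4r, known from hypothalamic control of feeding, were on all 3 lists and Mc3r on none. Mc5r, known from exocrine glands, was on the E15.5 KO and E13.5 WT lists. Mc2r, the corticotropin receptor of the adrenal cortex, was on the E13.5 WT list alone. Of the tachykinin receptors, Tacr1 (substance P) and Tacr3 (neurokinin B) were on all 3, and Tacr2 (neurokinin A, known from smooth muscle) was on both E13.5 lists and not on the E15.5 KO list.

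Among the adrenergic receptors, Adra1b, Adra2a, Adra2c, Adrb1 and Adrb3 were on all 3 lists. Adra2a is the receptor through which noradrenaline lowers insulin secretion. Adra1a and Adra2b were on both E13.5 lists and not on the E15.5 KO list, and Adra1d was on none. Of the muscarinic receptors, Chrm3, the main acetylcholine receptor of acinar and beta cells, and Chrm1 were on all 3. Chrm2, known from heart and nerve endings, was on both E13.5 lists only, Chrm4 on both KO lists only, and Chrm5 on none.

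The dopamine receptors were the family in which the E15.5 KO list held more members than the E13.5 lists, with 4 of 5 against 2 in E13.5 KO and 2 in E13.5 WT. Drd2 and Drd4 were on all 3, Drd1 and Drd3 on the E15.5 KO list alone, and Drd5 on none. Of the 12 serotonin receptors, Htr1b, Htr1d, Htr2c, Htr5b and Htr6 were on all 3. Htr5a was on the E15.5 KO list alone, Htr2b and Htr7 on the E13.5 KO list alone, and Htr2a on both E13.5 lists. Htr1a, Htr1f and Htr4 were on none. Htr2b is known from the rise in beta cell number during pregnancy in mice.

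Each of the 4 histamine receptors had a listing of its own. Hrh3, a presynaptic receptor, was on all 3 lists, Hrh2, the receptor of gastric acid secretion, on both E13.5 lists, Hrh4 of leukocytes on the E13.5 KO list alone, and Hrh1, the receptor of allergic responses, on the E13.5 WT list alone. The metabotropic glutamate receptors Grm2, Grm4, Grm5, Grm6 and Grm8 were on all 3. Grm3 was on both E13.5 lists only and Grm7 on the E13.5 KO list alone. Mir592 shares exon sequence with Grm8 on the same strand.

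**Figure D2:**
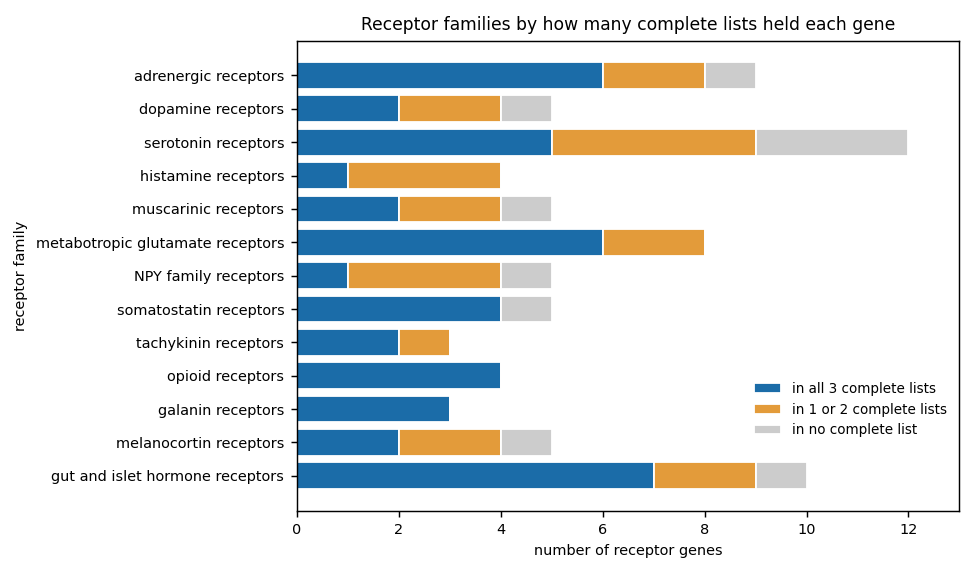
Number of receptor genes in each family that were in all 3 complete lists, in 1 or 2 of them, or in none. Bars are stacked counts of genes on a linear axis. The serotonin family had the most members on no list (3 of 12), and 3 of 4 histamine and 3 of 5 NPY family receptors were on 1 or 2 lists.

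Grouped by ligand, 13 of the 29 amine and acetylcholine receptors on any complete list were on 1 or 2 lists, against 8 of 31 peptide receptors and 2 of 8 glutamate receptors. Among protein-coding genes on any complete list the number was 1909 of 17949 (10.6%). By main coupling, 7 of 18 Gs receptors, 11 of 34 Gi/o receptors and 5 of 16 Gq/11 receptors on any list were on 1 or 2 lists. The groups were not tested against each other.

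Setting E13.5 KO against E13.5 WT asks which receptors were listed in one genotype at this age. Of the 65 receptors on either list, 54 were on both, 7 were on the KO list only (10.8%, against 3.17% of protein-coding genes on either list) and 4 on that of WT only (6.15%, against 2.91%). In all 16.9% of the receptors differed, against 6.08% of protein-coding genes. Adra2a, Chrm3, Sstr2, Sstr5, Gcgr, Gipr, Sctr and Cckar, receptors of islet, duct or acinar cells, were on both lists. Glp1r of beta cells was on the KO list only, as was Htr2b, known from beta cells in pregnancy. Mc5r, known from exocrine glands, was on the WT list only. Without the 29 receptors that overlap another gene anywhere along their span, 4 were on the KO list only and 4 on that of WT only. Without only the 17 whose exons overlap those of another gene, 5 were on the KO list only and 4 on that of WT only. Over all genes on either list, non-coding ones included, 9.72% were in KO only and 6.61% in WT only, close to the shares of the receptors.

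The 7 receptors on the E13.5 KO list only were Glp1r, Npy5r, Chrm4, Htr2b, Htr7, Hrh4 and Grm7. The E15.5 KO list held the first 3 of them as well, Glp1r (chromosome 17, 30901817 to 30940791, mm10/GRCm38), Npy5r (chromosome 8, 66679965 to 66688128) and Chrm4 (chromosome 2, 91927249 to 91928688). These were 4.41% of the receptors on any complete list, against 1.28% of protein-coding genes on both KO lists and not on the E13.5 WT list. The E15.5 WT list does not reach these 3 genes, so genotype and the single E13.5 WT library cannot be told apart.

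The start regions of the 3 receptors on both KO lists are shown because they are the receptors whose listing separated the KO libraries from the complete WT library. Sequences are from RefSeq on GRCm38.p6, 250 bases before to 50 after the RefSeq start, 5′ to 3′ on the strand of the gene. Capitals mark the GC box GGGCGG on either strand, where copies may overlap. The intervals are chr17:30901617-30901916 (plus strand) for Glp1r, chr8:66688045-66688344 (minus strand) for Npy5r and chr2:91921939-91922238 (plus strand) for Chrm4.
Glp1r: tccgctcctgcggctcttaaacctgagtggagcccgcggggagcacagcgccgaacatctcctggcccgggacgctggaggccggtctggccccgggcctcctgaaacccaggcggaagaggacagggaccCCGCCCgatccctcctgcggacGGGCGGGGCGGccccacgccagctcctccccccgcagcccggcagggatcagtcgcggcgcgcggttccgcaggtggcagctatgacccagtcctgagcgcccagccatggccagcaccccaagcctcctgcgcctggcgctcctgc
Npy5r: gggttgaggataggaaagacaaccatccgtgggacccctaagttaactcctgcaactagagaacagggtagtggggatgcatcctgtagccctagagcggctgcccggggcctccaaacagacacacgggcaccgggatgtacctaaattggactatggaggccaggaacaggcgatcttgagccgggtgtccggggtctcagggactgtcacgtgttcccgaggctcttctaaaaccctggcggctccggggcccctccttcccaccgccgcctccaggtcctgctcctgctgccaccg
Chrm4: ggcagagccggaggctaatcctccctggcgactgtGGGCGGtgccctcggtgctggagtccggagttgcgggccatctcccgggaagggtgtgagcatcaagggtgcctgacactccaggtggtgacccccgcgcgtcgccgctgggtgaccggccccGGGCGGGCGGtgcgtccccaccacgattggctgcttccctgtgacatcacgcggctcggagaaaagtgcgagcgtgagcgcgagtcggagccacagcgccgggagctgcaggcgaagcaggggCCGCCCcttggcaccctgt
The Glp1r and Chrm4 windows were 73.7% and 70.7% G and C, with 29 and 30 CpG pairs and 3 and 4 GC boxes. The Npy5r window was 61.7% G and C, with 15 CpG pairs and no GC box. The RefSeq start of Chrm4 lies 5060 bases from the start of its GENCODE model, which holds a single exon with no untranslated sequence, and those of Glp1r and Npy5r lie 50 and 34 bases from theirs.

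The other 4 of the 7 were on the E13.5 KO list alone, which was so for 5.88% of receptors and 1.84% of protein-coding genes. They were Htr2b (chromosome 1, 86099026 to 86111970), Htr7 (chromosome 19, 35958734 to 36057507), Hrh4 (chromosome 18, 13006990 to 13022882) and Grm7 (chromosome 6, 110645581 to 111567230). Htr2b lies within Psmd1 on the opposite strand and shares exon sequence with it, and Grm7 shares exon sequence with Gm20387 on the opposite strand. Where counting did not use the strand, reads of such pairs cannot be told apart.

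The 4 receptors on the E13.5 WT list only were Hrh1 (chromosome 6, 114397936 to 114483296), Npy2r (chromosome 3, 82538383 to 82548084), Mc2r (chromosome 18, 68406907 to 68429320) and Mc5r (chromosome 18, 68337596 to 68342446). The E15.5 KO list also held Mc5r, the 1 receptor on exactly those 2 lists (1.47% of receptors, 0.93% of protein-coding genes). Hrh1, Npy2r and Mc2r were on the E13.5 WT list alone (4.41% of receptors, 1.93% of protein-coding genes). Each of these 3 has a single coding exon, and none of the 4 overlaps another annotated gene.

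The comparison of E15.5 KO with E13.5 KO asks how the receptors listed differed between the libraries of the 2 ages of KO embryos. Of the 65 receptors on either list, 48 were on both, 4 on the E15.5 list only (6.15%) and 13 on the E13.5 list only (20.0%). Of the protein-coding genes, 2.55% were on the E15.5 list only and 5.03% on that of E13.5 only, so in both sets the E13.5 side was the larger. Without the 17 receptors with exon overlap, 4 receptors were on the E15.5 list only and 8 on that of E13.5 only. In all, 26.2% of the receptors differed and 7.57% of protein-coding genes. Age, sort and library coincide here and cannot be told apart.

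**Figure D3:**
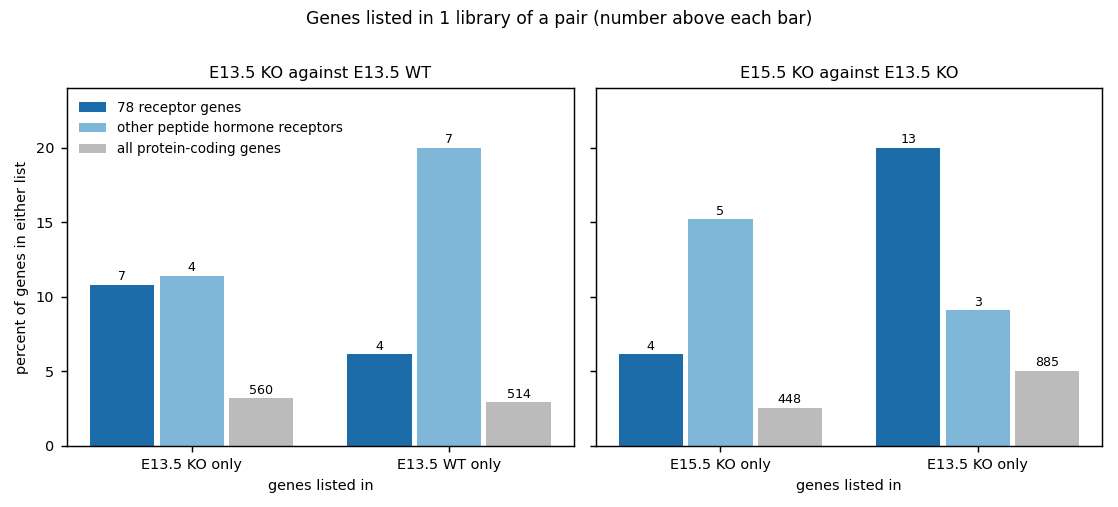
Percent of the genes on either list that were in 1 library only, for E13.5 KO against E13.5 WT (left) and E15.5 KO against E13.5 KO (right). Bars are the 78 receptors, 42 other peptide hormone receptors and all protein-coding genes, with the number of genes above each bar; there is 1 library a group and no error bar. The highest bars are the 13 receptors listed at E13.5 only in KO and the 7 other peptide hormone receptors listed in E13.5 WT only, both 20.0%.

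The E13.5 WT list also held 9 of the 13 receptors that were on the E13.5 KO list and not on the E15.5 KO list. These 9 were 13.2% of the receptors on any complete list, against 3.09% of protein-coding genes. They were Adra1a (chromosome 14, 66635251 to 66771168), Adra2b (chromosome 2, 127363208 to 127367221), Htr2a (chromosome 14, 74640840 to 74709494), Hrh2 (chromosome 13, 54192129 to 54236180), Chrm2 (chromosome 6, 36388084 to 36528414), Grm3 (chromosome 5, 9485541 to 9725170), Npy4r (chromosome 14, 34143992 to 34152489), Tacr2 (chromosome 10, 62252438 to 62265990) and Glp2r (chromosome 11, 67661502 to 67771153). They came from 8 families, 1 or 2 from each. Of them 5 bind an amine or acetylcholine, as do 29 of the 68 receptors on any complete list. By main coupling, 4 were Gi/o, 3 Gq/11 (Adra1a, Htr2a and Tacr2) and 2 Gs receptors. Of the receptors on any complete list, 34 were Gi/o, 16 Gq/11 and 18 Gs. The exons of Chrm2, Hrh2 and Glp2r overlap those of a gene on the opposite strand.

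The E15.5 KO list also lacked 10 of the 47 markers of other cell types that both E13.5 lists held, among them Foxd3 of the neural crest, Cdh5 and Tie1 of endothelium, Nkx3-2 of mesenchyme and Myod1 and Myog of muscle. The summed number on the list was 37 of 48 in E15.5 KO and 47 of 48 in E13.5 KO, and the epithelial markers were 43 of 43 in both. Of protein-coding genes, 76.2% were on the E15.5 KO list and 78.1% on the E13.5 KO list. Of those on any complete list, 3.09% were on both E13.5 lists and not on the E15.5 KO list. Sox10 of glia, Elavl4 and Stmn2 of neurons and Acta2 and Myh11 of smooth muscle were on all 3 lists. The part of these cells in the receptor difference was not tested. In sorted cells, fewer cells of a type and less RNA per cell cannot be told apart from a list.

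Some genes that make and clear the small ligands were also absent from the E15.5 KO list. Of 20 genes of amine and acetylcholine synthesis, storage and removal, 15 were on the E15.5 KO list, 19 on the E13.5 KO list and 18 on the E13.5 WT list, beside 76.2%, 78.1% and 77.9% of protein-coding genes. Dbh, which makes noradrenaline, Chat, which makes acetylcholine, and Slc18a3, which loads it into vesicles, were on both E13.5 lists and not on the E15.5 KO list. Slc18a3 lies within the span of Chat, so their listings may not be separate. Whether their exons overlap was not tested. Pnmt, which makes adrenaline, and Slc6a2, the noradrenaline transporter, were on the E13.5 KO list alone, and Slc6a3, the dopamine transporter, was on the E15.5 KO and E13.5 WT lists. Dbh and Th, the first enzyme of catecholamine synthesis, were on the E15.5 WT list, so for Dbh the E15.5 lists of KO and WT differed. In the stretch covered, 1.75% of protein-coding genes on either list were on the E15.5 WT list only and 2.92% on the E15.5 KO list only.

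The 4 receptors on the E15.5 KO list and not on the E13.5 KO list were Drd1 (chromosome 13, 54051183 to 54055705), Drd3 (chromosome 16, 43754026 to 43822932), Htr5a (chromosome 5, 27842149 to 27855088) and Mc5r. The first 3 were on the E15.5 KO list alone (4.41% of receptors, 1.57% of protein-coding genes). Drd1 is a Gs-coupled and Drd3 a Gi/o-coupled dopamine receptor, and Htr5a is a serotonin receptor known from the brain. Their start regions, shown for comparison with those of the receptors on both KO lists, are chr13:54055609-54055908 (minus strand), chr16:43761971-43762270 (plus strand) and chr5:27841697-27841996 (plus strand), with GC boxes again in capitals.
Drd1: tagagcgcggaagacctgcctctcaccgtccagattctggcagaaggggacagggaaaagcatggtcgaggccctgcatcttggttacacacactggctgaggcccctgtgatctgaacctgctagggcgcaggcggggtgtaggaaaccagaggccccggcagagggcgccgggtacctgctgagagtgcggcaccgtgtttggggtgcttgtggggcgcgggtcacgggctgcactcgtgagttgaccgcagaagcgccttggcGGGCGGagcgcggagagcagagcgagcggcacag
Drd3: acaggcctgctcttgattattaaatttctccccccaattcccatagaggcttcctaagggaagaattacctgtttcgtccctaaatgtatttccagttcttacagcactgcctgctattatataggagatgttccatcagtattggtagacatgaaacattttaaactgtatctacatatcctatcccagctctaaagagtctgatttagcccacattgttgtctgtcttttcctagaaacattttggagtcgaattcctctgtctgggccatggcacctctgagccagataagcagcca
Htr5a: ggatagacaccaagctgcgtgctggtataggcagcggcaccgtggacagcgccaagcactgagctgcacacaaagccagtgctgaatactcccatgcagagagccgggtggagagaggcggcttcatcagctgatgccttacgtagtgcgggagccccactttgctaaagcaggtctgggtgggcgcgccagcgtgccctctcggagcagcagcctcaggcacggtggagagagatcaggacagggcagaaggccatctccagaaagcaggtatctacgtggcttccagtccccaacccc
The Drd1 window was 65.7% G and C with 23 CpG pairs, that of Htr5a 61.3% with 14, and that of Drd3 42.0% with 2. RefSeq lists 2 starts for Drd1, of which the first in its table is shown, and the RefSeq start of Drd3 lies 8195 bases inside the GENCODE model. No TATA box (TATAAA) and no full cAMP response element (TGACGTCA), on either strand, was in any of the 6 windows. Of all 27018 start regions of this length, not limited to protein-coding genes, 35.9% hold a GC box, 14.2% a TATA box and 1.88% a cAMP response element. The letters describe the windows and not the binding of a factor.

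At E15.5 the genotypes could be set side by side for Grm6 and Oprm1 only. Oprm1 (chromosome 10, 6758506 to 7038198), the mu opioid receptor, was on the E15.5 KO and E15.5 WT lists and on both E13.5 lists. Grm6 (chromosome 11, 50850685 to 50866208), the glutamate receptor of retinal bipolar cells, was on the E15.5 KO list and both E13.5 lists and not on the E15.5 WT list. In the stretch covered, 2.92% of protein-coding genes on either list were on the E15.5 KO list only and 1.75% on the E15.5 WT list only. Exons of Grm6 and Oprm1 overlap those of Gm12660 and Ipcef1 on the opposite strand. The other 76 receptors could not be compared between genotypes at this age.

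Most peptide ligand genes, and the genes of G protein signalling that were counted, were on all 3 complete lists. Of 23 peptide ligand genes, 20 were on all 3 lists, among them Sst, Gcg, Gip, Sct, Cck, Gast, Gal, Tac1, Penk and Pomc. Pdyn, which encodes the dynorphins that act on Oprk1, was on both KO lists and not on the E13.5 WT list. Vip and Galp were on none, whereas Vipr1, Vipr2 and the galanin receptors were on all 3, as was Adcyap1, which encodes PACAP. The 13 G protein alpha subunits and 7 receptor kinases and arrestins that were counted were on all 3 lists. So were the 22 second messenger enzymes and effectors and the 8 receptor accessory proteins counted. These sets were chosen and need not be complete. Of all annotated protein-coding genes, 73.1% were on all 3 lists. Gnai3 and Gna12 were also on the E15.5 WT list.

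The receptors differed in gene structure from the background. The choice by symbol took whole families, so this difference describes the genes chosen and not the libraries. A single coding exon was found in 30 of the 78 (38.5%), against 16.3% of protein-coding genes. It was found in 14 of the 45 receptors on all 3 lists (31.1%), 9 of the 23 on 1 or 2 lists (39.1%) and 7 of the 10 on none (70.0%). Among protein-coding genes the shares were 7.38%, 20.4% and 50.1% in the same order. The median span was 14.5 kb in receptors on all 3 lists, 22.4 kb in those on 1 or 2 and 5.57 kb in those on none, against 23.6, 10.8 and 5.97 kb in protein-coding genes. In both sets the median was lowest for genes on none. Receptors on 1 or 2 lists had a higher median than those on all 3, and protein-coding genes on 1 or 2 lists a lower one, although the receptors on 1 or 2 lists ran down to the 1.44 kb of Chrm4.

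**Figure D4:**
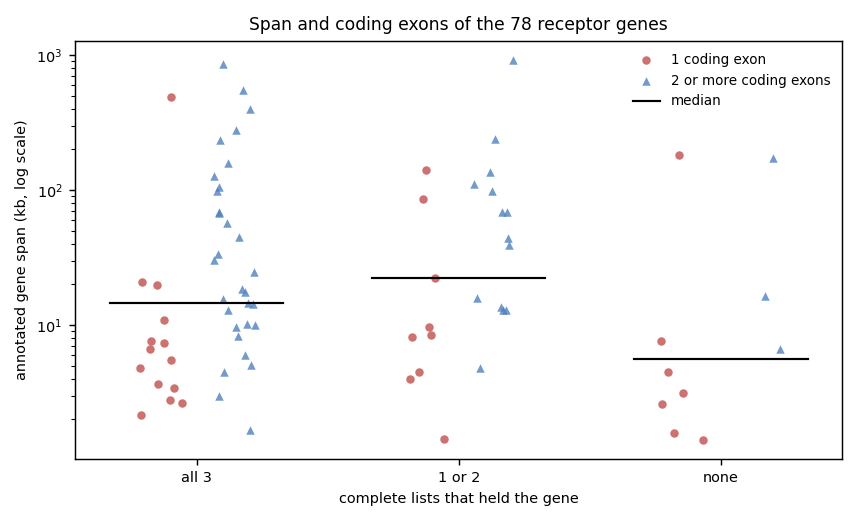
Annotated span in kb (log scale) of each of the 78 receptor genes, by the number of complete lists that held it. Circles are genes with 1 coding exon, triangles those with 2 or more, and the line is the median: 14.5 kb in all 3, 22.4 kb in 1 or 2 and 5.57 kb in none. Among the genes on no list, 7 of 10 are circles.

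The 10 receptors on no list were Adra1d, Drd5, Htr1a, Htr1f, Htr4, Chrm5, Npy6r, Sstr4, Mc3r and Ghsr. They were 12.8% of the 78, against 18.2% of protein-coding genes on no complete list. The models of Chrm5 and Chrm4 hold 3 exon bases beyond the coding sequence, the stop codon, and every other receptor has at least 100 such bases.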

How the data were processed

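Single-cell RNA-seq was done on 4 libraries, 1 a group, grouped by title. The files deposited by the authors have no header and 2 columns, a gene identifier and a symbol, with no values. The submitters' processing notes name Seurat and mm10, with no Seurat version. The sources used here state neither the aligner nor the annotation release, nor what made a gene enter a list. A list grows with cells and reads, and neither is known.

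Receptors were found by deposited symbol and, where on no list, by GENCODE M21 symbol (GRCm38). All 68 listed receptors carried the GENCODE symbol. Listing was counted in Python 3.11.15 with pandas 2.3.3, beside all protein-coding genes, and the counting was tested on simulated lists. The E15.5 WT list was used as far as its last complete line, over 187 annotated genes. Main coupling was assigned from general knowledge. Start regions from RefSeq were found for 55 receptors.

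The receptors and gene lists were chosen with earlier results of these data known. Named were the receptors that differed, those on no list, those in the E15.5 WT stretch, families with a pancreatic role, and genes of the other lists that differed. Others were added after their values were seen. Some genes are counted but not reported by name here, 2 of them receptors, which are also not drawn in the plot of listing by gene. Alternatives were the annotation's symbols, other sets of receptors and all genes as background.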

Additional observations from a re-analysis of the deposited data

How the results depend on the processing

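No paired analysis was possible because there is a single library per group. The annotation's symbols and leaving out the glutamate receptors moved no count by more than 1.5 times. Without the 29 receptors that overlap another gene, the lists held 31 (E15.5 KO), 35 (E13.5 KO) and 35 (E13.5 WT) of 49, 4 receptors were in E13.5 KO only against 4 in E13.5 WT only, and 7 were in E13.5 KO and not in E15.5 KO. Without the 17 whose exons overlap those of another gene, chosen after the data were seen, 5 were in E13.5 KO only against 4 in E13.5 WT only, and 8 were in E13.5 KO and not in E15.5 KO. With the other peptide hormone receptors added, the E15.5 KO list held 82 of 120 and the E13.5 WT list 89, 11 receptors were in E13.5 KO only and 11 in E13.5 WT only, and 9 were in E15.5 KO and not in E13.5 KO. The counts did not all change in step with the number of genes. Without the 29, the E13.5 KO only count went from 7 to 4, and the E13.5 WT only count stayed at 4. With the added receptors, these counts went from 7 to 11 and from 4 to 11. Why they changed unequally was not tested. With all genes as background, 9.72% were in E13.5 KO only and 6.61% in E13.5 WT only, and between the KO ages 7.37% were on the E15.5 list only and 10.4% on that of E13.5 only, so that the shares of receptors in 1 list only were close to this background except for those on the E13.5 KO and not the E15.5 KO list. Leaving out the E15.5 WT list gives no value for Grm6 and Oprm1 at that age. Alternatives that need counts could not be run.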

Other observations

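Receptors of 42 other peptide hormones, chosen by name, differed between the same lists too, with the larger number on the other side from the 78 in both comparisons, a contrast that was not tested. At E13.5, 4 of the 35 on either list were in KO only (11.4%, against 3.17% of protein-coding genes). In WT only there were 7 (20.0%, against 2.91%). In all 31.4% differed, against 16.9% of the 78 receptors on either list and 6.08% of protein-coding genes. The 4 were Crhr1, a receptor of corticotropin-releasing hormone, Nmbr (neuromedin B), Npbwr1 and Uts2r (urotensin). The 7 were Avpr2, the vasopressin receptor of the kidney, Hcrtr2 (orexin), Nmur2 (neuromedin U), Qrfpr, Rxfp1 and Rxfp3 (relaxin family) and Trhr (thyrotropin-releasing hormone). Between the KO ages, 5 of 33 were on the E15.5 list only (15.2%, against 2.55% of protein-coding genes). On that of E13.5 only were 3 (9.09%, against 5.03%). In all 24.2% differed, against 26.2% of the 78 and 7.57% of protein-coding genes. A larger share of differing genes than in protein-coding genes was thus not particular to the 78. Nmur1, Ntsr2 (neurotensin) and Pth2r were on the E15.5 KO list alone, and Avpr1a, a vasopressin receptor, was the 1 such receptor on both E13.5 lists and not on the E15.5 KO list. Crhr1 and Nmbr were on both KO lists and not on the E13.5 WT list. Those on all 3 lists numbered 23 and included Ednra and Ednrb (endothelin), Calcrl, Oxtr (oxytocin) and Adcyap1r1 (PACAP).

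In the start regions of the 55 receptors with one, 31 (56.4%) held a GC box, against 35.9% of all start regions. That background was not limited to protein-coding genes, as the receptors are, so the shares are not like for like. The numbers were 15 of 29 among receptors on all 3 lists, 13 of 19 among those on 1 or 2 and 3 of 7 among those on none.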
